A study of Homo sapiens with 2 samples.

Results

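The loci of LGR4, LGR5 and LGR6 were examined in peak lists from chromatin immunoprecipitation sequencing (ChIP-seq) of flag-Cdx1 and flag-Cdx2. Peaks were taken by the position of their summit, in windows that hold each whole gene, namely positions 27377000 to 27505000 of chromosome 11 for LGR4 (128 kb), 71813000 to 71989000 of chromosome 12 for LGR5 (176 kb) and 202153000 to 202299000 of chromosome 1 for LGR6 (146 kb). These windows held 52 of the 196910 flag-Cdx1 peaks and 57 of the 218718 flag-Cdx2 peaks, or 109 of 415628 peaks in all. Coordinates are those of the deposited lists, whose build is given by the submitters' processing notes as GRCh37.

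LGR4, LGR5 and LGR6 are receptors with leucine-rich repeats that bind R-spondins, the secreted proteins that strengthen Wnt signaling at the cell surface. LGR5 is itself a Wnt target gene and marks stem cells at the base of intestinal crypts, whereas LGR4 is expressed more broadly along the crypt and in many other tissues, and LGR6 is known as a marker of stem cells in skin. CDX1 and CDX2 are homeodomain transcription factors that specify the intestinal epithelium and bind AT-rich DNA.

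Both libraries came from DLD1-TetOff cells, which are human colon cancer cells (CCL-221) with a doxycycline (DOX)-repressed transactivator, carrying a transgene for FLAG-tagged mouse Cdx1 or Cdx2. Such lines were made by expansion of single-cell clones, so that each factor may be represented by 1 clone. DOX (0.5 µg/mL) was withdrawn from 10 dishes per factor, and after 20 h the cells were fixed (1% formaldehyde, 5 min) and pooled. Their chromatin was cut with micrococcal nuclease (MNase, 50 min), and the tagged proteins were pulled down on beads carrying the M2 antibody to FLAG. The sample descriptions speak of cells that do not express the tagged protein in the presence of DOX, whereas the growth and treatment protocols state withdrawal, and the libraries are taken here as induced. There was 1 library per factor, and neither an input library nor a library without the tagged protein was used, so that differences between the factors could not be tested and the intervals below cover counting error only. The flag-Cdx1 library kept 16452141 tags and the flag-Cdx2 library 13781541. Peak height is given as the pileup, that is, the fragments lying over the summit, and also as FPM (fragments per 1000000 kept tags), in which 1 fragment is worth 0.0608 with flag-Cdx1 and 0.0726 with flag-Cdx2.

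The sequences below show where the known peak near the LGR5 transcription start site (TSS) and the first intron were probed by qPCR in the study, and what stands before the annotated starts of LGR4 and LGR6. The primers +1004F and +1163R are listed for an amplicon from +1004 to +1163, counted from the LGR5 TSS as +1, and the primers intron1-2F and intron1-2R for an amplicon from +12123 to +12324 in the first intron. They are printed 5′ to 3′.
LGR5 +1004F: gcatcccttgcactgtgac
LGR5 +1163R: ctaatcggggtttgtggttg
LGR5 intron1-2F: ccaaaacccacaaccccacaaccac
LGR5 intron1-2R: ccacgggaaggaatggacaaggca
The promoters are RefSeq sequences of GRCh38.p14, given as the 250 bases before an annotated start and in the direction of the gene. The table used here held 1 LGR4 promoter and 3 LGR6 promoters, of which the one farthest upstream is shown, and no entry for LGR5. As the lists use another build, no peak was placed on these sequences.
LGR4 promoter, chr11:27472791-27473040, minus strand: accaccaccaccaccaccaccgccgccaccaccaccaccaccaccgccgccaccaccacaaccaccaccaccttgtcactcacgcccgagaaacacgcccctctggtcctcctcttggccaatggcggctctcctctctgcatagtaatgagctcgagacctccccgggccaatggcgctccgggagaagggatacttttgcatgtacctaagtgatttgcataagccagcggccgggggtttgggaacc
LGR6 promoter, chr1:202193549-202193798, plus strand: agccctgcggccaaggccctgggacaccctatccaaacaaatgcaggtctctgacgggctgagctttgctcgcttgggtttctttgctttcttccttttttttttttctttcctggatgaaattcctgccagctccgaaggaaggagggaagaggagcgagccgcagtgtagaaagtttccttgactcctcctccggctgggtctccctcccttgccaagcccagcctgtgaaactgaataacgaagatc
Forms of the core word bound by CDX proteins (the hexamer TTTATG, the hexamer TTTATT, the hexamer TTTACG and the hexamer TTTACT) were searched on both strands and would stand in capitals. They were found in 0 of the 4 promoters of LGR4 and LGR6, whereas 29.9% of 35116 promoters of the same length held at least 1. The words CTTTGAT and CTTTGTT of the TCF partners of β-catenin were likewise found in 0 of the 4, beside 6.60% of all promoters. The 4 LGR5 primers held 0 of these words, but they are only 19 to 25 bases long and are the ends of the amplicons. The sequence between the primers was not searched.

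LGR5 and LGR6 carried more peaks per length than the average of the autosomes in both libraries, and LGR4 stood close to that average with flag-Cdx1 and above it with flag-Cdx2. At LGR5, 23 flag-Cdx1 peaks and 25 flag-Cdx2 peaks were called, or 13.1 (95% exact Poisson interval, 8.28 to 19.6) and 14.2 (9.19 to 21.0) per 100 kb. At LGR6, the 20 and 18 peaks came to 13.7 (8.37 to 21.2) and 12.3 (7.31 to 19.5) per 100 kb. The averages over the 22 autosomes were 6.74 per 100 kb for flag-Cdx1 and 7.46 for flag-Cdx2. LGR5 thus stood at 1.94 and 1.90 times the average, and LGR6 at 2.03 and 1.65 times. The interval for LGR6 with flag-Cdx2 reached below the flag-Cdx2 average, and the other 3 intervals of LGR5 and LGR6 lay above theirs. LGR4 held 9 flag-Cdx1 peaks and 14 flag-Cdx2 peaks, which are 7.03 (3.22 to 13.3) and 10.9 (5.98 to 18.4) per 100 kb, and both intervals hold the averages. With only peaks of a −log10 q-value of at least 5, LGR4 with flag-Cdx1 fell below the average, from 1.04 to 0.222 times it, and LGR6 with flag-Cdx2 rose from 1.65 to 2.84 times.

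**Figure D1:**
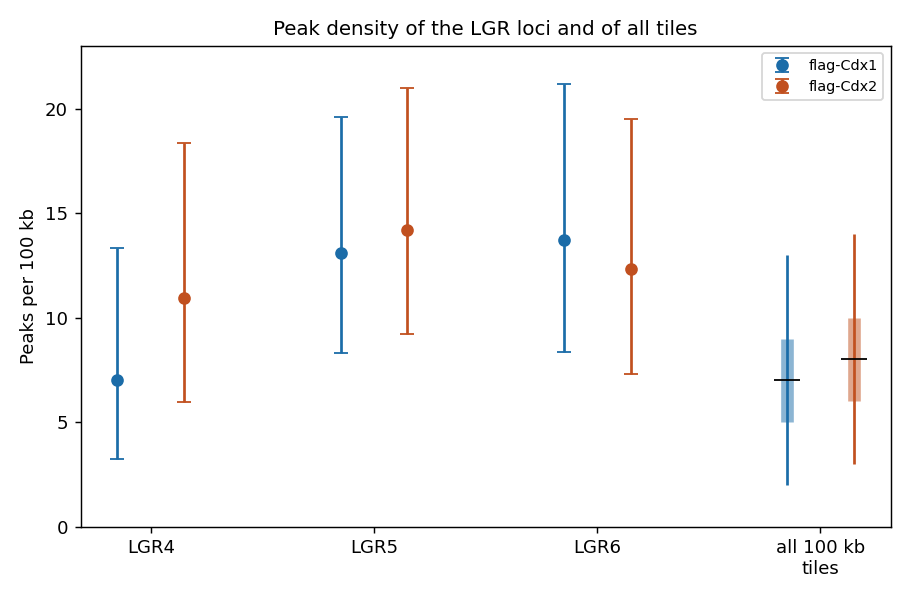
Number of peaks per 100 kb (vertical axis) at each LGR locus in the flag-Cdx1 and flag-Cdx2 lists (points, with 95% exact Poisson intervals), beside 26666 tiles of 100 kb on the autosomes that hold at least 1 peak (line, 5th to 95th percentile; box, quartiles; dash, median). LGR5 and LGR6 lie near the 95th percentile of the tiles, which is 13 for flag-Cdx1 and 14 for flag-Cdx2, and LGR4 lies lower.

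Beside single tiles of 100 kb, the densities of LGR5 and LGR6 were in the upper end of the distribution. Tiles that hold at least 1 peak had a median of 7 flag-Cdx1 peaks and 8 flag-Cdx2 peaks, with 95th percentiles of 13 and 14. The densities of LGR5 with both factors and of LGR6 with flag-Cdx1 were at or above these percentiles. The windows are longer than the tiles and were chosen to hold whole genes, so the percentiles are only a rough guide to them. The averages of chromosomes 12, 1 and 11 (7.26, 6.81 and 7.23 with flag-Cdx1 and 8.05, 7.49 and 7.83 with flag-Cdx2) were close to those of all autosomes.

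Most of these peaks were of ordinary height. The median pileup over the peaks of the 3 loci was 0.547 FPM with flag-Cdx1 and 0.580 FPM with flag-Cdx2, the same as the medians of the whole lists, or 9 and 8 fragments. The median fold enrichment over the local background was 5.15 and 4.85, beside 5.33 and 4.72 in the lists. With flag-Cdx1, 21 of the 52 peaks (40.4%) reached a −log10 q-value of 5, beside 52.2% of the list, and with flag-Cdx2 20 of the 57 (35.1%), beside 29.0%. Of the 21, LGR5 held 12, LGR6 8 and LGR4 1, and of the 20, LGR6 held 9, LGR5 6 and LGR4 5.

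**Figure D2:**
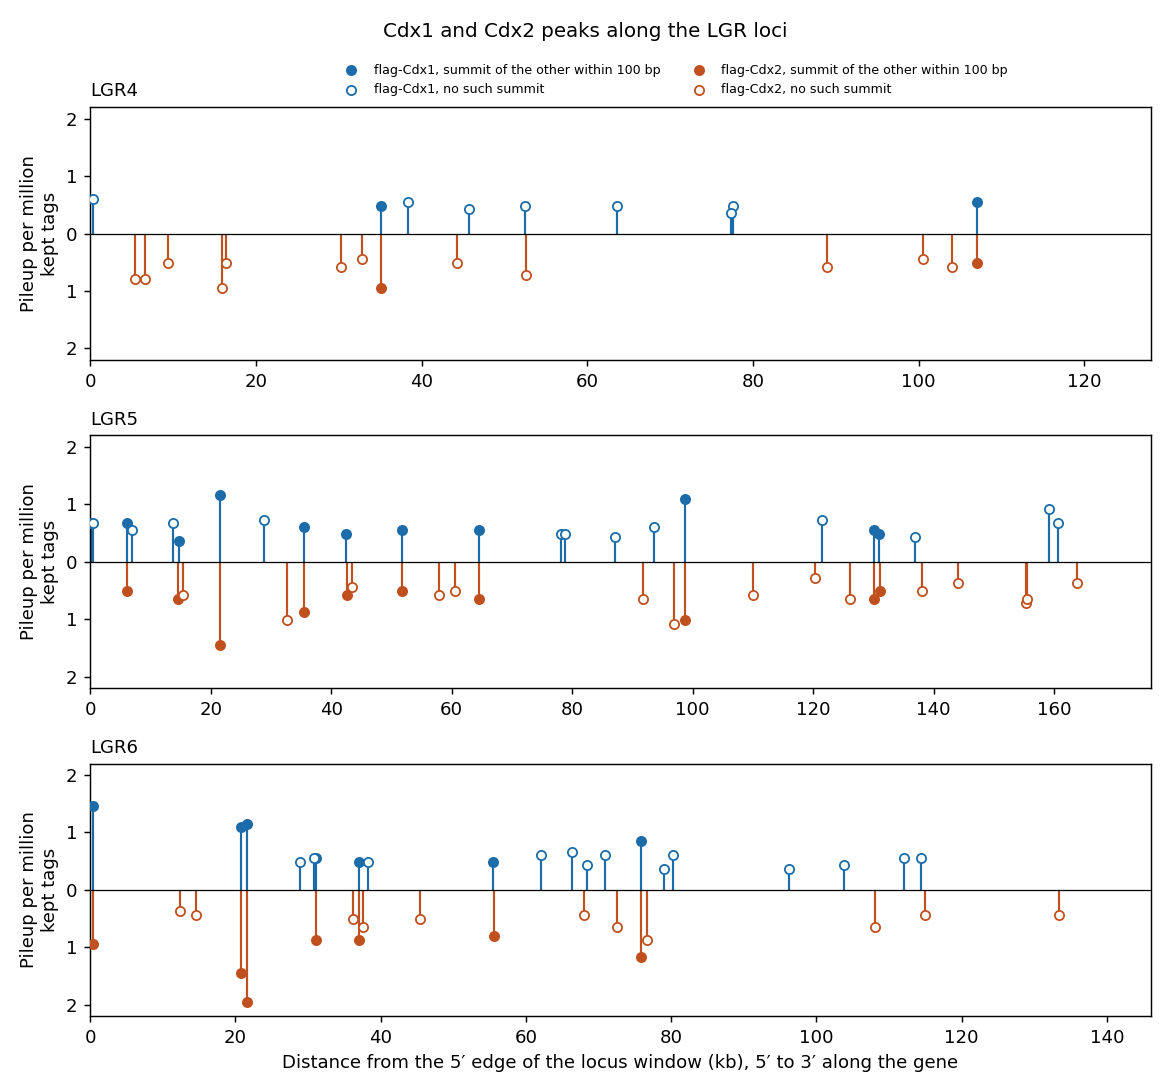
Pileup in FPM (vertical axis) of every peak of LGR4, LGR5 and LGR6 against its distance in kb from the 5′ edge of the window (horizontal axis, in the direction of the gene), with flag-Cdx1 upward and flag-Cdx2 downward. Filled circles have a summit of the other library within 100 bp (2 pairs at LGR4, 10 at LGR5 and 7 at LGR6), and open circles have none.

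At LGR5, peaks continued along the whole gene. In each library, the highest LGR5 peak by pileup was taken as the known peak near the TSS, and is called TSS-proximal below. Its place near the TSS was not checked on GRCh37. Its summit was at 71834615 with flag-Cdx1 (19 fragments, 1.15 FPM, fold enrichment 9.83) and at 71834625 with flag-Cdx2 (20 fragments, 1.45 FPM, fold enrichment 10.4). In addition, 16 flag-Cdx1 summits and 21 flag-Cdx2 summits lay downstream of it. Upstream, on the side of the neighboring gene TSPAN8, lay 6 and 3 summits, of which 2 in each list were shared. One shared pair was at 71819107 (11 fragments with flag-Cdx1) and 71819131 (7 with flag-Cdx2). The other was at 71827677 (6) and 71827611 (9). The downstream peaks had 7 to 18 fragments (median 9) with flag-Cdx1 and 4 to 15 (median 8) with flag-Cdx2. When the window was divided into 10 equal parts, the 5 parts nearest the 5′ end held 15 of the 23 flag-Cdx1 peaks and 12 of the 25 flag-Cdx2 peaks. GRCh37 exons and introns were not used here, so that positions within LGR5 are given as distances from the peak near the TSS.

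Other peaks lay on both sides of the TSS-proximal peak. Within 10 kb of it, flag-Cdx1 had summits at 71826677 (11 fragments), 71827677 (6) and 71841833 (12), and flag-Cdx2 had summits at 71827611 (9) and 71828492 (8). The nearest downstream summit was 7218 bp away with flag-Cdx1 and 11099 bp away with flag-Cdx2. Both of these were unshared. The flag-Cdx1 peak at 71841833 had a pileup of 0.729 FPM and a fold enrichment of 6.43, and its nearest flag-Cdx2 summit was 3891 bp away. The flag-Cdx2 peak at 71845724 had 14 fragments (1.02 FPM) and a fold enrichment of 6.70, with the nearest flag-Cdx1 summit at 2827 bp. The distance from the TSS-proximal flag-Cdx2 summit to this peak, 11099 bp, was near the 11140 bp between the centres of the listed amplicons at +1004 and in the first intron, whereas the flag-Cdx1 summit nearest to that spacing was 13936 bp from its TSS-proximal summit. The amplicons themselves were not placed on the build of the lists.

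Further downstream in LGR5, peaks of both factors coincided at 7 places. The highest of them by flag-Cdx1 pileup stood 77156 bp beyond the TSS-proximal summit, at 71911771 with flag-Cdx1 (18 fragments, 1.09 FPM, fold enrichment 8.09) and at 71911752 with flag-Cdx2 (14 fragments, 1.02 FPM). These pileups exceeded those of 94.6% and 92.4% of the peaks in the respective lists. By fold enrichment, which was 5.98 with flag-Cdx2, the shares were 93.3% and 82.1%. The local background was 1.69 and 2.17 times the genome-wide value. The next shared place after the TSS-proximal peak was at 71848551 and 71848490, with 10 and 12 fragments. It was followed by 71855546 and 71855580 with 8 fragments each, by 71864681 and 71864709 with 9 and 7, and by 71877519 and 71877548 with 9 each. After the peak pair at 71911771 came 71943094 and 71943052, again with 9 fragments each, and a last pair less than 1 kb beyond it, with 8 and 7. Apart from the pair at 71911771, the downstream shared peaks thus had 7 to 12 fragments.

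The interior of LGR5 also held strong peaks of a single list. The flag-Cdx2 peak at 71909878 had 15 fragments (1.09 FPM, fold enrichment 6.21), and it stood 1893 bp before the flag-Cdx1 summit at 71911771. It exceeded 94.2% of the flag-Cdx2 list by pileup and 84.0% by fold enrichment, at a local background of 2.27 times the genome-wide value. The longest stretches without a peak were 22754 bp with flag-Cdx1, from 71911771 to 71934525, and 27180 bp with flag-Cdx2, from 71877548 to 71904728. In the former, flag-Cdx2 had 2 peaks of 8 and 4 fragments, and in the latter flag-Cdx1 had 3 peaks of 7 or 8 fragments. These stretches were picked as the longest of 1 list. Over the whole locus, flag-Cdx2 had 14.2 and flag-Cdx1 13.1 peaks per 100 kb, so that some peaks of the other list are ordinary in them.

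In the 5 parts nearest the 3′ end of LGR5, 3 of the 8 flag-Cdx1 peaks and 3 of the 13 flag-Cdx2 peaks were shared. The last 45.0 kb of the window, which begin by definition after the last shared summit, held 3 of these 8 flag-Cdx1 peaks and 5 of these 13 flag-Cdx2 peaks. The highest was the flag-Cdx1 peak at 71972134, with 15 fragments (0.912 FPM) and a fold enrichment of 7.71, above 88.8% of its list by pileup. Its nearest flag-Cdx2 summit was 3641 bp away. The last flag-Cdx1 summit lay at 71973573 (11 fragments) and the last flag-Cdx2 summit at 71976753 (5 fragments). A pair of flag-Cdx2 summits only 241 bp apart, at 71968252 and 71968493, had 10 and 9 fragments. Beyond 71976753, the last 12247 bp of the window on the side of ZFC3H1 held 0 summits of either library, and the next summits outside the window were 11183 bp (flag-Cdx1) and 12812 bp (flag-Cdx2) past its edge. At the 5′ end, the first flag-Cdx1 summit was at 71813081, 81 bp inside the edge and with 11 fragments, and the nearest outside it was at 71808003, 4997 bp beyond the edge and with 10. The first flag-Cdx2 summit was at 71819131, 6131 bp inside the edge and with 7 fragments.

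By pileup, LGR6 had the highest peak of the 3 loci in each list, and both lay towards its 5′ side. By fold enrichment, the highest was at LGR6 with flag-Cdx1 (12.1, beside 9.83 at LGR5). With flag-Cdx2 it was at LGR5 (10.4, beside 8.60 at LGR6). The highest flag-Cdx1 peak was at 202153423, with 24 fragments (1.46 FPM, interval 0.935 to 2.17) and a fold enrichment of 12.1, above 98.3% of the list by pileup. It was shared with a flag-Cdx2 peak at 202153412 of 13 fragments (0.943 FPM). These summits lie only 423 bp and 412 bp inside the 5′ edge of the window, on the side of the neighboring gene PTPN7, and whether they belong to LGR6 or to PTPN7 was not determined. The next highest flag-Cdx1 peak of LGR6 had 19 fragments, as many as the TSS-proximal LGR5 peak.

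The highest flag-Cdx2 peak of LGR6 was part of a shared doublet. Its summits lay at 202173711 and 202174562 with flag-Cdx1 (18 and 19 fragments, 1.09 and 1.15 FPM) and at 202173780 and 202174569 with flag-Cdx2 (20 and 27 fragments, 1.45 and 1.96 FPM). The distance within the doublet was 851 bp and 789 bp, respectively. The flag-Cdx2 peak of 27 fragments exceeded 99.3% of its list by pileup and spanned 202174465 to 202175162 (698 bp), the longest peak of the 3 loci. The local background under the doublet was also the highest of the 3 loci, at up to 2.25 times the genome-wide value with flag-Cdx1 and 3.27 times with flag-Cdx2, so that the fold enrichments of the higher summits were 7.16 and 8.60. The part of this background in the values was not tested.

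A further 4 pairs were found within LGR6. They stood at 202184132 and 202184127 (9 fragments with flag-Cdx1 and 12 with flag-Cdx2), at 202189965 and 202189979 (8 and 12), at 202208534 and 202208540 (8 and 11), and at 202228855 and 202228852 (14 and 16). The last of these summits, at 202228852, exceeded 95.5% of the flag-Cdx2 list. All 4 were higher in FPM with flag-Cdx2, within the counting error given below. The highest unshared peaks, with ties in pileup broken by fold enrichment, were a flag-Cdx2 peak at 202229678 (12 fragments), 823 bp beyond a shared pair, another at 202261069 (9), and flag-Cdx1 peaks at 202219308 (11) and 202233219 (10). The ties were flag-Cdx2 peaks at 202190602 and 202225478 (9 each) and flag-Cdx1 peaks at 202215099 and 202223911 (10 each).

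In the 5 of 10 equal parts nearest the 3′ end of LGR6, 1 of the 7 flag-Cdx1 peaks and 1 of the 5 flag-Cdx2 peaks were shared. The last 70.1 kb, which begin by definition after the last shared pair at 202228855, held 6 flag-Cdx1 peaks of 6 to 10 fragments and 4 flag-Cdx2 peaks of 6 to 12 fragments. In the first 5 of 10 equal parts of the window lay 13 of the 20 flag-Cdx1 peaks and 13 of the 18 flag-Cdx2 peaks, with 6 of the 7 shared pairs. The longest stretches without a peak were 20288 bp with flag-Cdx1, from 202153423 to 202173711, and 31391 bp with flag-Cdx2, from 202229678 to 202261069.

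At LGR4, the highest peak of each list was lower than at LGR5 and LGR6, whereas the median of 0.580 FPM with flag-Cdx2 was the same as at LGR5. The flag-Cdx1 peaks had 6 to 10 fragments, the highest being at 27504613 (0.608 FPM), 387 bp inside the 5′ edge of the window next to LIN7C. The flag-Cdx2 peaks had 6 to 13 fragments. The highest flag-Cdx2 peaks were at 27489041 and 27469849, each with 13 fragments (0.943 FPM) and fold enrichments of 7.54 and 6.75. The former had no flag-Cdx1 summit within 15572 bp, and the latter was shared with a flag-Cdx1 peak at 27469874 of 8 fragments. The other shared pair, at 27397936 and 27397965 near the 3′ end on the side of CCDC34, had 9 and 7 fragments. Another place missed the limit of 100 bp, with summits 130 bp apart at 27452527 (8 fragments with flag-Cdx1) and 27452397 (10 with flag-Cdx2). Other unshared peaks were flag-Cdx2 peaks at 27499567 and 27498368 (11 fragments each) and a flag-Cdx1 peak at 27466684 (9).

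Peaks of both lists lay more often towards the 5′ side of LGR4. In the first 5 of 10 parts lay 10 of the 14 flag-Cdx2 peaks and 6 of the 9 flag-Cdx1 peaks. The longest gap of each list held peaks of the other, which had 10.9 (flag-Cdx2) and 7.03 (flag-Cdx1) peaks per 100 kb over the locus. Between 27504613 and 27469874, flag-Cdx1 had no peak for 34739 bp, whereas this stretch held 7 flag-Cdx2 peaks. Conversely, flag-Cdx2 had no peak for 36303 bp between 27416094 and 27452397, where flag-Cdx1 had 3. The last of the 10 parts held 0 peaks of either library, although the nearest flag-Cdx1 peak outside the 3′ edge, 5319 bp away, had 17 fragments.

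**Figure D3:**
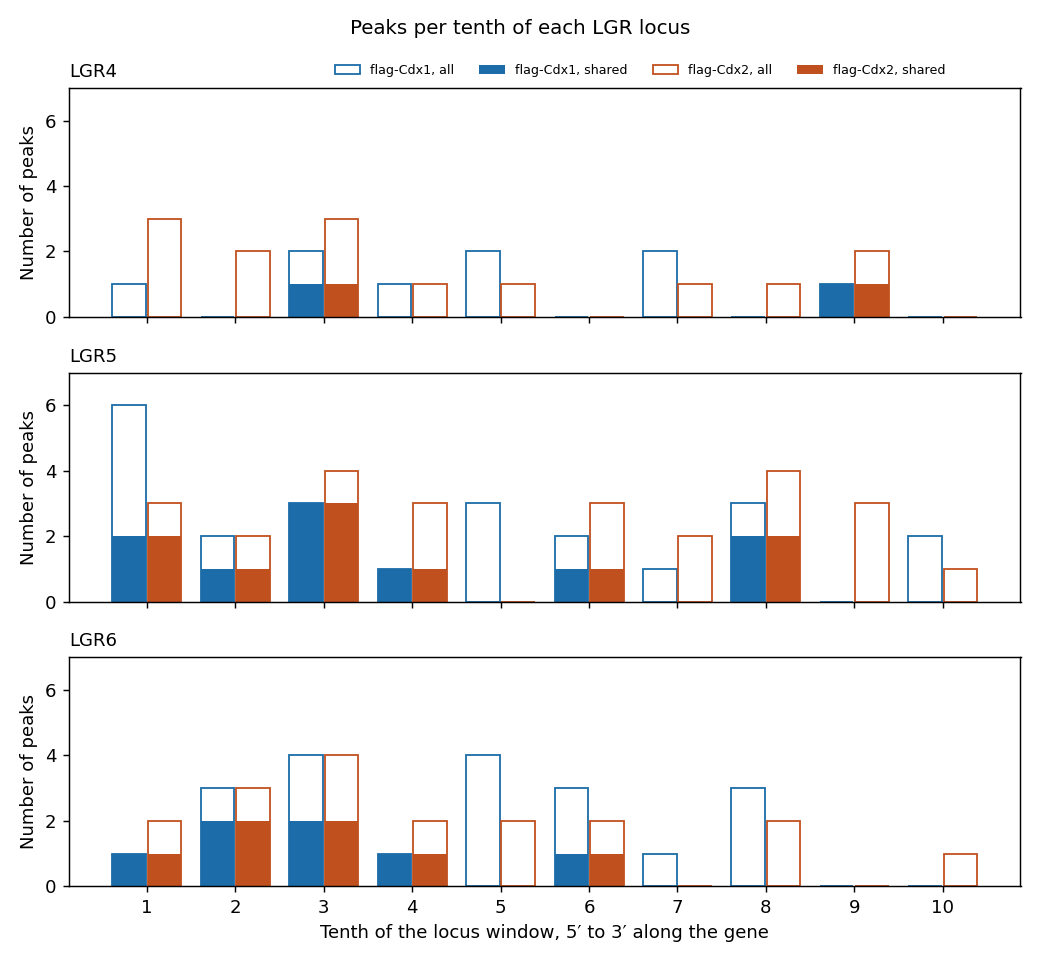
Number of peaks (vertical axis) in each of 10 equal parts of the windows of LGR4, LGR5 and LGR6, ordered 5′ to 3′ along the gene, for flag-Cdx1 and flag-Cdx2, with shared peaks filled. The first part of LGR5 holds the largest number, 6 flag-Cdx1 peaks beside 3 flag-Cdx2 peaks.

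In total, 19 summits of each library had a summit of the other within 100 bp, which is 36.5% of the flag-Cdx1 peaks (95% Wilson interval, 24.8 to 50.1) beside 29.2% of that list, and 33.3% of the flag-Cdx2 peaks (22.5 to 46.3) beside 26.3%. Both intervals hold the share of the list. At LGR5, 10 peaks were shared, or 43.5% (25.6 to 63.2) of flag-Cdx1 and 40.0% (23.4 to 59.3) of flag-Cdx2. At LGR6, 7 were shared, or 35.0% (18.1 to 56.7) and 38.9% (20.3 to 61.4). At LGR4, 2 were shared, or 22.2% (6.32 to 54.7) and 14.3% (4.01 to 39.9). The share was thus highest at LGR5 and lowest at LGR4, but the intervals of the 3 loci overlap.

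Sharing went with the q-value for flag-Cdx2, as it did in the whole list. Of the 20 flag-Cdx2 peaks with a −log10 q of at least 5, 12 (60.0%) were shared, beside 7 of the 37 lower ones (18.9%). The corresponding shares of the list were 46.2% and 18.2%. With flag-Cdx1, 9 of 21 (42.9%) and 10 of 31 (32.3%) were shared, beside 38.2% and 19.4% in the list. When both peaks of a pair had to reach this q-value, 33.3% of the 21 flag-Cdx1 peaks and 35.0% of the 20 flag-Cdx2 peaks were shared, beside 21.9% and 35.5% in the lists. The median pileup of shared and unshared flag-Cdx2 peaks was 0.871 and 0.580 FPM, whereas both medians were 0.547 with flag-Cdx1. By locus, the shared median was the higher one at LGR6 with both factors (0.851 and 0.547 with flag-Cdx1, 0.943 and 0.508 with flag-Cdx2), at LGR4 with both (0.517 and 0.486, 0.726 and 0.580, from 2 shared pairs) and at LGR5 with flag-Cdx2 (0.653 and 0.580). At LGR5 with flag-Cdx1, it was the lower one, with 0.547 for shared and 0.669 for unshared peaks.

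At the shared places, the summits nearly coincided. Their distance was 3 to 69 bp with a median of 25 bp, beside 26 bp over all 57545 shared pairs of the lists. The median was 7 bp at LGR6 and 31.5 bp at LGR5.

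**Figure D4:**
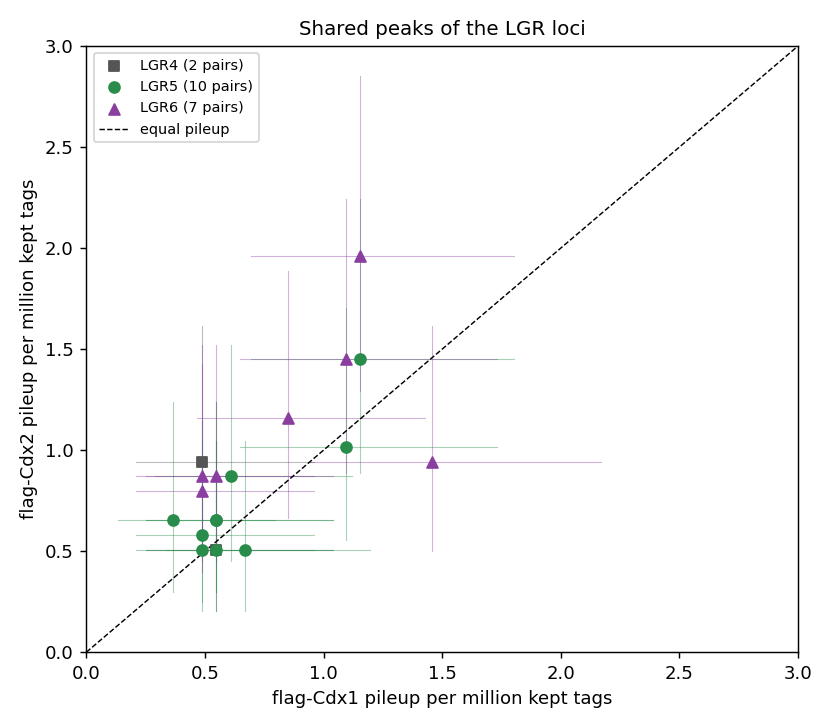
Pileup in FPM with flag-Cdx1 (horizontal axis) and flag-Cdx2 (vertical axis) at the 19 shared peaks of LGR4, LGR5 and LGR6, with 95% exact Poisson intervals and a line of equal pileup. Most points (14 of 19) lie above the line, and LGR6 holds the highest values of both factors.

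The depth-scaled pileups were more often higher with flag-Cdx2. The ratio of flag-Cdx1 to flag-Cdx2 was below 1 at 14 of 19 pairs (73.7%), beside 54.9% of all shared pairs, with a median of 0.796 beside 0.952. At some of these pairs the direction came from the depth scaling alone. For example, the LGR5 pairs at 71855546 and 71877519 had equal fragments (8 each and 9 each), and the pair at 71943975 had 8 with flag-Cdx1 and 7 with flag-Cdx2. By locus, it was below 1 at 7 of 10 pairs at LGR5, 6 of 7 at LGR6 and 1 of 2 at LGR4, and the medians were 0.838, 0.628 and 0.796. However, the 95% interval of the ratio, from the exact binomial interval of the 2 pileups, held 1 at all 19 pairs. For the TSS-proximal LGR5 peak, the ratio was 0.796 (0.402 to 1.57), and for the LGR5 pair at 71911771 it was 1.08 (0.506 to 2.34). The lowest ratio was at LGR4, 0.515 (0.185 to 1.34) at 27469874. The highest was at LGR6, 1.55 (0.757 to 3.31) at 202153423, the only pair with more than 1.5-fold more signal with flag-Cdx1, beside 12.0% of all shared pairs. Signal more than 1.5-fold higher with flag-Cdx2 was found at 6 pairs, 4 of them at LGR6, beside 16.5% of all shared pairs. These include the higher summit of the LGR6 doublet at 202174562, with a ratio of 0.589 (0.310 to 1.10).

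Within the windows, neighboring peaks of the LGR loci stood closer together at the median than in the lists as a whole. Distances that cross a window edge were not counted at the loci, so the medians are not strictly alike. Some of these distances were long. At the 3′ edge of LGR6, the flag-Cdx1 summits lay 31574 bp inside and 4767 bp outside the edge. The median distance between neighboring summits within a locus was 6565 bp with flag-Cdx1 and 6089.5 bp with flag-Cdx2, beside 9092 and 8717 bp in the lists. Distances under 1 kb made up 7 of 49 (14.3%, list 7.29%) and 9 of 54 (16.7%, list 6.58%). By locus, the medians with flag-Cdx1 were 9278.5 bp at LGR4, 6751 bp at LGR5 and 4209 bp at LGR6, and with flag-Cdx2 3515, 6089.5 and 6151 bp. The order of the loci was therefore not the same in both lists, and the median of LGR4 with flag-Cdx1 was slightly wider than that of its list. The closest neighbors were 241 bp apart, in the flag-Cdx2 pair near the 3′ end of LGR5, and 243 bp apart with flag-Cdx1 at LGR6, from 202183889 to 202184132.

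The local background at these peaks was above that of the list at all 3 loci with flag-Cdx2, and at LGR5 and LGR6 with flag-Cdx1. Relative to the genome-wide background of each library, its medians at LGR4, LGR5 and LGR6 were 1.10, 1.28 and 1.21 with flag-Cdx1 (list 1.17), and 1.42, 1.41 and 1.44 with flag-Cdx2 (list 1.08). The part of this background in the number of peaks was not tested.

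Most unshared peaks had no summit of the other list within 1 kb. For the 33 unshared flag-Cdx1 peaks, the nearest flag-Cdx2 summit was at a median of 3165 bp (130 to 13586), and for the 38 unshared flag-Cdx2 peaks the nearest flag-Cdx1 summit was at 3761.5 bp (130 to 17315). Of these peaks, 7 and 8 had one within 1 kb. The same distances were not computed for the whole lists, so they are not read as particular to these loci. Scaled to the depth of the other library, the pileup of 33 of 33 unshared flag-Cdx1 peaks and of 37 of 38 unshared flag-Cdx2 peaks reached the lowest pileup that the other library called at a like local background. It was at least 1.5 times that lowest pileup at 22 and 26 of them. As this limit is the minimum over a whole list, it is easily reached, and the same counts were not made for other peaks. The part of depth in the missing partners was not tested.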

How the data were processed

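Peak lists of 1 flag-Cdx1 library and 1 flag-Cdx2 library (ChIP-seq, DLD1-TetOff cells) were used, with the factor taken from the sample titles. The submitters' processing notes name bcl2fastq 1.8.3, cutadapt 1.1, Trimmomatic 0.32, MACS2 2.0.10 and GRCh37. The aligner is not given in the sources used here. Per the file headers, peaks were called in each library alone with MACS 2.0.10.20131216 under a cutoff of 0.05 for the q-value, with an effective genome size of 2700000000 bp, at most 1 tag per position, a local background over 10 kb and no control. The deposited values are the pileup signal over the summit as whole fragments, the fold enrichment (a ratio with a pseudocount of 1), −log10 values of p and q, and a score, which was not used further. The authors' p-values and q-values rest on this background alone.

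Of 17264704 flag-Cdx1 and 14534643 flag-Cdx2 tags, 95.3% and 94.8% were kept, and the fragment lengths were 131 and 136 bp. Weaker binding was not detectable at this depth. Peaks were assigned to a locus by their summit, and called shared when a summit of the other library lay within 100 bp. Pileups were scaled to 1000000 kept tags. Counts and pileups have 95% exact Poisson intervals, shares Wilson intervals, and ratios of 2 pileups exact binomial intervals. All intervals cover counting error only. Local background was recovered from pileup and fold enrichment. Like backgrounds differed by at most 0.1, each taken as a ratio to the genome-wide background of its library. The direction of each gene and the neighboring genes were taken from the RefSeq table of GRCh38.p14, from which no coordinate was placed on the lists. Promoters are RefSeq sequences, and primers are those of the study.

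The factors were compared without a test, as neither had a replicate. The members and lists were chosen with earlier results of these data known. Peaks named one by one were the strongest of each locus and library, shared pairs by summed pileup (up to 8 per locus), the 2 strongest unshared peaks of each locus and library (ties by fold enrichment), and at LGR5 the peaks nearest the window edges and within 10 kb of the TSS-proximal peak. Other peaks are named as the edges of gaps, as close neighbors or as near misses, and were chosen after their values were seen. Alternatives covered stricter peak sets, other definitions of sharing and membership, other scalings and shortened windows. Scripts were tested on simulated data. Computations used numpy 2.4.6, scipy 1.17.1 and pandas 2.3.3 under Python 3.11.15, and plots matplotlib 3.10.9.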

Additional observations from a re-analysis of the deposited data

How the results depend on the processing

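The number of peaks at the LGR loci fell to 21 with flag-Cdx1 and 20 with flag-Cdx2 when only peaks with a −log10 q of at least 5 were kept, and to 30 and 26 when it was the fold enrichment that had to reach 5. The former setting put the density of LGR4 with flag-Cdx1 at 0.222 times the autosomal average and that of LGR6 with flag-Cdx2 at 2.84 times. It widened the median spacing to 7.75 kb with flag-Cdx1 and 11.1 kb with flag-Cdx2, since fewer peaks were left, and the mean spacing with flag-Cdx1 was 7.78 kb. The remaining 41 planned values moved by less than their counting interval or by less than 1.5 times. One of them crossed its average, namely the density of LGR4 with flag-Cdx1, which was 1.04 times that of the autosomes and 0.972 times that of its own chromosome. The share of shared peaks ran from 28.8% to 39.5% with flag-Cdx1 and from 26.3% to 39.5% with flag-Cdx2 over the other definitions and when each locus was left out in turn, an alternative chosen after seeing the data. No paired analysis was possible because each factor had only 1 library, and no library could be left out. At 4 to 27 fragments per summit, depth limits every comparison between the factors.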
